A study of Mus musculus with 2 samples.

Results

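The 34 genes described here are Myc, which encodes a transcription factor of growth and proliferation, and 33 genes whose products build ribosomes or are textbook targets of MYC. They were taken as a list of gene symbols, drawn up with earlier results of these data known, and all 34 were among the 32285 genes of the count tables. They were measured in single mouse regulatory T (Treg) cells, the CD4+ T cell lineage that depends on the transcription factor Foxp3 and restrains other immune cells. Before sequencing, cells stained with MitoTracker, a dye that collects in mitochondria, were split by flow cytometry into brightly stained cells (Mito-High) and dimly stained cells (Mito-Low), and each of these groups gave 1 library. The labels name no treatment, genotype, strain, tissue, sex, age or number of mice for either group. With 1 library per group there is no spread between replicates, so no test was made. Every interval below is a 95% interval that covers counting error only, and intervals of transcript counts leave out the variation between cells. The question that the design poses is how cells with much and with little mitochondrial dye differ.

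Ribosomes are assembled in the nucleolus. RNA polymerase I transcribes a long precursor RNA from the ribosomal DNA, small nucleolar ribonucleoprotein particles (snoRNPs) modify it, and dedicated processing complexes cut it while ribosomal proteins join the growing small and large subunits. MYC binds DNA together with MAX, mainly at the 6-base E-box, and raises the transcription of many genes of this route and of translation. T cells enlarge their nucleoli and their translation machinery when they are activated and before they divide, while resting T cells keep both low. The 34 genes fall by role into Myc itself, 8 snoRNP genes, 5 genes of multifunctional nucleolar proteins, 5 of small-subunit processing, 7 of large-subunit processing, 3 subunits of RNA polymerase I (one of them shared with RNA polymerase III), 3 of translation and tRNA modification, and 2 other MYC targets.

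Barcodes with at least 500 detected genes and at most 20% of their unique molecular identifiers (UMIs, each marking one captured RNA molecule) from mitochondrially encoded genes were kept as cells. That left 12217 of 12352 Mito-High barcodes and 11679 of 11901 Mito-Low barcodes, with 89896278 and 60526210 UMIs in total and medians of 6132 and 4668 UMIs per cell. The labels state 12000 loaded cells per library, fewer than the barcodes kept in Mito-High, so a barcode may not always be 1 cell, and the counts and shares of cells below are of barcodes. The libraries had 38 barcodes in common, 35 of them among kept cells. Each of the 6 Treg markers checked, Foxp3 among them, and each of the 5 T cell markers was detected in both libraries, and platelet markers were at 0. Summed B cell markers came to 24.2 counts per 1000000 UMIs (CPM) in the bright library and 18.0 CPM in the dim one, and myeloid markers to 84.5 and 106 CPM. A group of transcripts linked to RNA quality (Gm42418, Malat1 and Lars2) made up 11096 CPM of the Mito-High library but 22198 CPM of the other, and cytosolic ribosomal protein transcripts took 29.6% and 23.9% of UMIs. The part of these last differences in the results below was not tested.

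Taken as one sum, the 34 genes were higher in Mito-High. They held 0.485% of UMIs there (435574 UMIs, interval 0.483% to 0.486%) and 0.360% in Mito-Low (217613 UMIs, 0.358% to 0.361%), a log2 ratio of 0.43 (0.42 to 0.44). The median log2 ratio over the 34 genes was 0.27, and over the 24 of them that reached 20 CPM in either library 0.50. It was -0.15 over the 5787 genes that reached 20 CPM in either library, called all genes below. Of the 34 genes, 26 were above 0, against 31.9% of all genes, and 8 passed 1.5-fold upward, against 3.65% of all genes, or 9.76% of the 20258 genes with a UMI in each library. None passed 1.5-fold downward, against 10.7% of all genes (22% of those with a UMI in each). The 8 genes were Myc, C1qbp, Npm1, Nop16, Nhp2, Gar1, Dkc1 and Eif4a1. The 5 members with the most UMIs (Npm1, Ncl, Eif5a, Eif4a1 and Mif) supplied 71.8% of the member UMIs of Mito-High and 69.0% of those of Mito-Low, so the sum mainly follows them. Without these 5 the log2 ratio of the sum was 0.29.

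The count of 8 depends on which cells are weighed. It came to 4 when every cell was cut down to 2000 randomly drawn UMIs (thinned) or when cells above 20000 UMIs were left out, and to 1, Myc, when only cells of 4000 to 6000 UMIs were used. The share of all genes was not computed in these settings. It was 13 when the libraries were scaled by the trimmed mean of M-values (TMM), which adds 0.19 to every log2 ratio and brings the median of all genes to 0.04. Under that scaling 7.33% of all genes passed 1.5-fold upward and 6.17% downward, so 54.3% of the passing genes were higher, in place of 25.5%. The direction of 24 of the 34 genes was the same in all 16 settings tried, 20 of them higher and 4 lower in Mito-High (Bop1, Wdr43, Rrp12 and Utp20). Sizes moved more than the counting intervals below show. The lowest log2 ratios over the settings were 0.11 for Nhp2, 0.14 for Mif, 0.13 for Mettl1 and 0.08 for Pa2g4. They were 0.45 for Npm1, 0.47 for Eif4a1 and 0.42 for C1qbp.

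**Figure D1:**
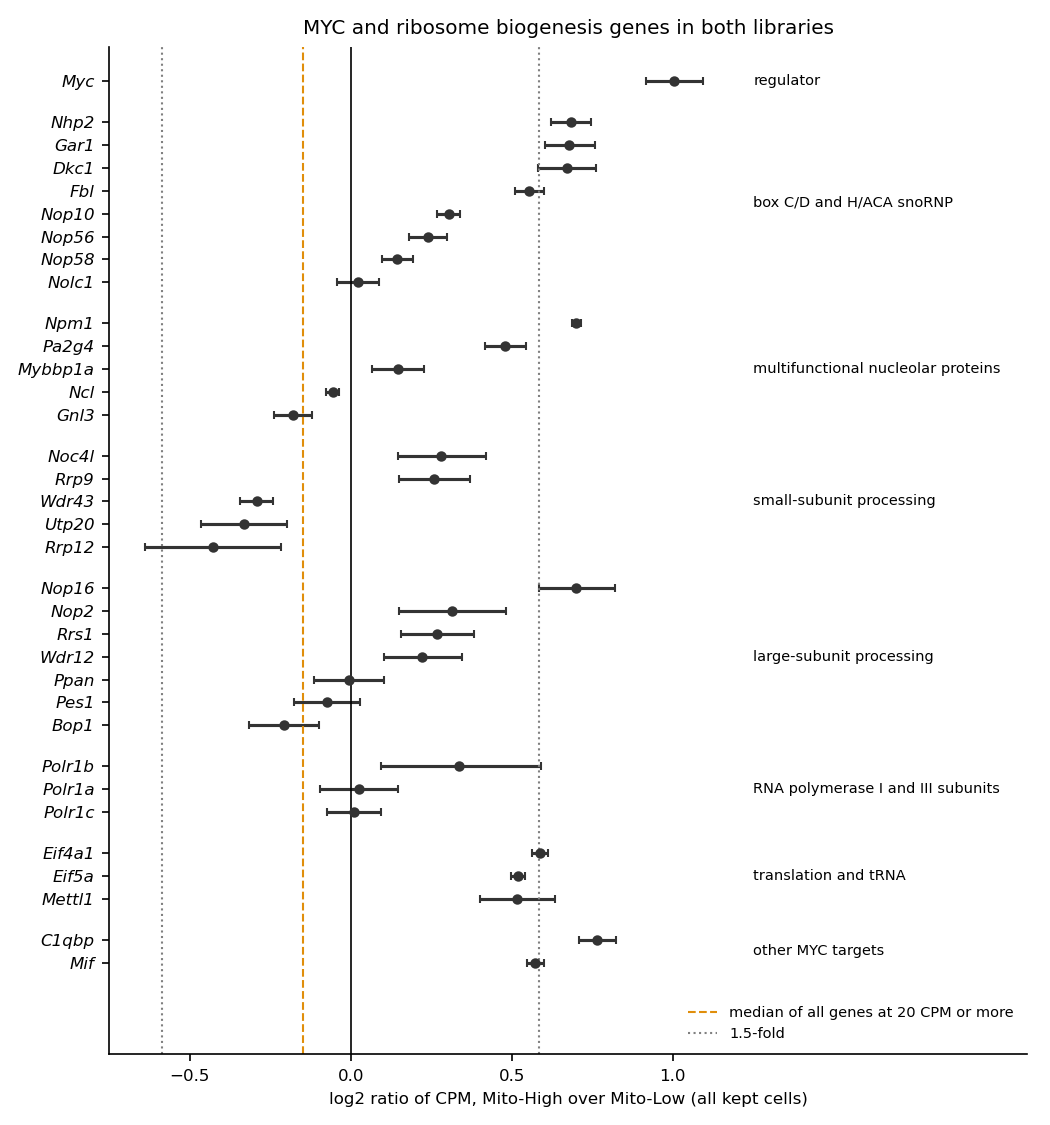
Log2 ratio of CPM, Mito-High over Mito-Low, for the 34 genes over all kept cells, grouped by role. Points are ratios of summed counts, bars are 95% intervals for counting error only, the dashed line is the median of all genes at 20 CPM or more (-0.15) and the dotted lines mark 1.5-fold. Myc has the highest ratio (1.005), Rrp12 the lowest (-0.43), and under TMM scaling each point moves right by 0.19.

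Myc itself had the largest ratio of the group. Mito-High had 46.5 CPM of it (4178 UMIs, interval 45.1 to 47.9) and Mito-Low 23.1 CPM (1401 UMIs, 22.0 to 24.4), a log2 ratio of 1.005 (0.92 to 1.09). It was the sole gene of the 34 to stay past 1.5-fold in all 16 alternative settings, in which its log2 ratio lay between 0.90 and 1.19. The mean count of Myc was 0.342 UMIs in a Mito-High and 0.120 in a Mito-Low cell. At least 1 Myc UMI was found in 21.1% of bright and 9.04% of dim cells, and in 7.67% (7.20% to 8.16%) and 4.08% (3.73% to 4.47%) after thinning to 2000 UMIs per cell, which left out 139 and 491 shallower cells. No cell type known to lack Myc was available among these sorted cells, so the share that free RNA alone would give was not measured.

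All 8 snoRNP genes had ratios above 0 over all kept cells, with a median of 0.43. Of the 16 other settings, Nolc1 kept this sign in 8 (lowest -0.22) and Nop58 in 12 (lowest -0.07). The H/ACA particle, which turns uridine into pseudouridine, is built from dyskerin (Dkc1) with Gar1, Nhp2 and Nop10. With the Mito-High level first here and below, Nhp2 was at 80.5 and 50.1 CPM (log2 ratio 0.68, 0.62 to 0.75), Gar1 at 50.7 and 31.7 (0.68, 0.60 to 0.76), and Dkc1 at 36.3 and 22.8 (0.67, 0.58 to 0.76). Nop10 differed less, with 192 and 155 CPM (0.30, 0.27 to 0.34). In the C/D particle, which adds methyl groups to ribose, the methyltransferase fibrillarin (Fbl) was at 149 and 101 CPM (0.55, 0.51 to 0.60). Its scaffold proteins stood closer together between the libraries: Nop56 was at 73.4 and 62.2 CPM (0.24, 0.18 to 0.30) and Nop58 at 98.9 and 89.4 CPM (0.15, 0.10 to 0.19). Nolc1, a chaperone of snoRNPs, had nearly the same level in both, 50.9 and 50.1 CPM, with an interval that spanned 0. Over all kept cells the catalytic and H/ACA genes thus showed larger ratios than the C/D scaffolds, a difference that was described and not tested. It was not firm for each gene. At 4000 to 6000 UMIs Nhp2 and Nop10 were both at 0.11. The lowest values over the 16 settings were 0.38 for Gar1, 0.36 for Dkc1 and 0.35 for Fbl, and 0.04 for Nop56.

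The 5 multifunctional nucleolar proteins did not move as one. Npm1, which encodes the abundant nucleolar chaperone nucleophosmin, was at 1469 and 904 CPM (0.70, 0.69 to 0.71). Ncl, which encodes nucleolin, was at 581 and 604 CPM (-0.06, -0.08 to -0.04), and this small difference turned to a positive value under each of the 3 other scalings. Pa2g4, a growth-regulated RNA-binding protein, was at 70.6 and 50.6 CPM (0.48) and Mybbp1a, a MYB-binding nucleolar protein, at 37.0 and 33.4 CPM (0.15). Gnl3, the nucleolar GTP-binding protein nucleostemin, was lower in Mito-High, 59.6 against 67.5 CPM (-0.18, -0.24 to -0.12), and its sign turned under TMM scaling. Npm1 was thus higher in Mito-High while Ncl was nearly level.

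Small-subunit processing was the one role with a median below that of all genes, -0.29 over 5 genes. Wdr43, a component of the small-subunit processome, was at 75.5 and 92.5 CPM (-0.29, -0.34 to -0.24). Utp20 was at 10.9 and 13.7 CPM (-0.33) and Rrp12 at 4.36 and 5.87 CPM (-0.43, -0.64 to -0.22), the last with 355 UMIs in Mito-Low. Rrp9, which binds the U3 snoRNA, and Noc4l went the other way, with 21.0 against 17.5 CPM (0.26) and 13.8 against 11.4 CPM (0.28). The 3 lower genes kept their sign in all 16 settings.

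Large-subunit processing held both directions too, with a median of 0.22. Nop16 had the largest ratio of these, 22.3 and 13.7 CPM (0.70, 0.58 to 0.82). Next came Nop2, an rRNA methyltransferase, at 9.44 and 7.58 CPM (0.32), Rrs1 at 19.9 and 16.5 CPM (0.27) and Wdr12 at 17.03 and 14.6 CPM (0.22). Wdr12 works in one complex with Pes1 and Bop1, and the other two were not higher in Mito-High. Pes1 was at 21.2 and 22.3 CPM, with an interval that spanned 0, and Bop1 at 17.3 and 19.97 CPM (-0.21, -0.32 to -0.10). Ppan was level, at 19.1 CPM in each library.

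RNA polymerase I subunits were close between libraries. The largest subunit gene Polr1a was at 15.8 and 15.5 CPM and Polr1c, shared with RNA polymerase III, at 31.8 and 31.6 CPM, and both intervals spanned 0. Polr1b, the second-largest subunit, was at 4.33 and 3.42 CPM (0.34, 0.09 to 0.59), from 389 and 207 UMIs. The translation genes were higher in Mito-High: the RNA helicase Eif4a1 at 448 against 298 CPM (0.59, 0.56 to 0.61), the elongation factor Eif5a at 604 against 422 CPM (0.52), and Mettl1, a tRNA methyltransferase, at 20.6 against 14.4 CPM (0.52, 0.40 to 0.64). The other MYC targets were higher as well. C1qbp, a mitochondrial matrix protein, was at 97.6 against 57.3 CPM (0.77, 0.71 to 0.82) and the cytokine Mif at 376 against 253 CPM (0.57, 0.55 to 0.60).

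Features of the genes bear on how firmly single values can be read. In the GENCODE annotation 12 of the 34 overlap a gene on the opposite strand (Nop56 with Idh3b and Gnl3 with Pbrm1, for example), and whether the counting used strand is not stated. Mif has 2 named pseudogenes. Second, ratios followed transcript length. The 8 members with a principal transcript under 1500 bases had a median log2 ratio of 0.56, the 17 of 1500 to 3000 bases 0.28, and the 9 of at least 3000 bases 0.02. Over all measured genes the same length classes gave 0.07, -0.11 and -0.21, and Spearman's rho between ratio and length was -0.55 across the 34 genes and -0.30 across 5647 genes. Genes of one library share its depth and are not independent, and the part of length in the result was not tested.

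The promoters of the members were read for the E-box because MYC binds it. RefSeq windows on GRCm38.p6, from 250 bases before to 50 bases after a start, were at hand for 28 of the 34 genes; Bop1, Fbl, Myc, Npm1, Rrp12 and Rrs1 had none. CACGTG, a palindrome that reads the same on both strands, was in a window of 8 of the 28 genes (28.6%) and of 8.09% of all 27025 genes with a window. The members' windows were richer in G and C (median 59.7% against 52.7%), and among windows with at least 8 CpG the shares were 29.4% and 10.6%. In the 250 bases before the start alone, 3 of 28 genes (10.7%) and 6.86% of all genes had the motif. The following 30-base stretches hold every CACGTG found, in capitals, written 5′ to 3′ on the gene's strand; they are shown because they are the members that carry the letters MYC is known to bind. Those of Eif4a1, Eif5a and Nop2 lie before a start and the other 5 genes' within 50 bases after one.
Eif4a1, chr11:69672595-69672624, minus strand: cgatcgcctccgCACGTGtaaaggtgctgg
Eif5a, chr11:69920791-69920820, minus strand: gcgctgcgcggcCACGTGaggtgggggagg
Eif5a, chr11:69921443-69921472, minus strand: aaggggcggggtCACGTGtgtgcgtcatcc
Nop2, chr6:125131811-125131840, plus strand: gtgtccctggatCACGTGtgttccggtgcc
Mettl1, chr10:127041950-127041979, plus strand: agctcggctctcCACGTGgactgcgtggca
Mybbp1a, chr11:72441347-72441376, plus strand: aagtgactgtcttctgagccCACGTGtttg
Pes1, chr11:3963965-3963994, plus strand: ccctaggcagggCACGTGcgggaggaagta
Utp20, chr10:88826765-88826794, minus strand: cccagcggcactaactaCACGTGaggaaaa
Wdr43, chr17:71616220-71616249, plus strand: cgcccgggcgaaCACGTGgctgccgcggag

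Genes with and without these letters had like ratios. Between the libraries the median log2 ratio was 0.23 for the 8 genes with CACGTG (from -0.33 for Utp20 to 0.59 for Eif4a1) and 0.27 for the 20 genes whose windows lack it. The variant CACGCG, or CGCGTG on the other strand, is a different set of letters from CACGTG and was in 9 of 28 genes (32.1%) and in 10.5% of all genes. Of the 8 genes at least 1.5-fold higher, Nhp2 and Nop16 hold it and are shown for that reason, with the variant in capitals.
Nhp2, chr11:51619764-51619793, plus strand: ggaggcggcggcCGCGTGgttcctctatgc
Nop16, chr13:54590029-54590058, minus strand: ggagactattaaCACGCGgctctgagagcg

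For comparison, the 250 bases before the start are given for C1qbp, the gene with a window that had the largest ratio, and for Wdr43, at 20 CPM or more the gene with the smallest. Neither stretch holds CACGTG or the variant, so both are all in lower case, and G and C make up 59.2% and 56.8% of them.
C1qbp, chr11:70983027-70983276, minus strand: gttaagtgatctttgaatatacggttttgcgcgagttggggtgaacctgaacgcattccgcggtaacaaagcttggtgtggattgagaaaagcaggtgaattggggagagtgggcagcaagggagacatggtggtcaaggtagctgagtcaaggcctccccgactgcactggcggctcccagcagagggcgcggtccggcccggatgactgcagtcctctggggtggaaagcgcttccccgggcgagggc
Wdr43, chr17:71615965-71616214, plus strand: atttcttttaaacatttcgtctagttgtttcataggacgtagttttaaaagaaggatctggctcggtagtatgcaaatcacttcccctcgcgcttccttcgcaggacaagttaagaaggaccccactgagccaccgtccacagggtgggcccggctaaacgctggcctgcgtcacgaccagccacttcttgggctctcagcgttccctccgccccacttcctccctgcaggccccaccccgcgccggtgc
A match or its absence describes these letters in these windows and nothing about binding.

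To see where in the population the genes were high, cells were sorted into classes by marker transcripts that are not among the 34. Resting cells had at least 1 UMI of Igfbp4, effector cells at least 2 of Ccl5, Il10 and Klrg1, Eno3-positive cells at least 1 UMI of Eno3 (an enolase of glycolysis), and cycling cells at least 3 of Pclaf, Birc5, Mki67, Top2a, Rrm2 and Cdca8. The remaining cells are called other cells. Mito-High held 2771 resting (22.7%), 171 effector (1.40%), 1430 Eno3-positive (11.7%), 561 cycling (4.59%) and 7759 other cells. Mito-Low held 188 (1.61%), 1533 (13.1%), 192 (1.64%), 38 (0.325%) and 9762. When classes were called on cells thinned to 2000 UMIs, the Mito-High shares were 11.9%, 0.397%, 3.99% and 2.06% and the Mito-Low shares 0.912%, 6.61%, 0.661% and 0.134%. A cell can be in several classes, as 453 Mito-High and 34 Mito-Low cells were. In Mito-High a fuller list of cycling markers summed to 3437 CPM in cycling and 95.2 CPM in other cells. It was at 1117 CPM in effector cells of Mito-High but 80.6 CPM in those of Mito-Low. Resting markers set their class apart less, with 3894 CPM in resting and 2804 CPM in other Mito-High cells, and 3346 and 1253 CPM in Mito-Low. Effector markers were at 291 CPM in other Mito-High and 945 CPM in other Mito-Low cells. Cells of a class were thus not matched between the libraries in these markers. Since a class called by detection favours deep cells, the medians of UMIs per cell matter. They were 6407, 8904, 7888, 16569 and 5703 in Mito-High and 5649.5, 5293, 6007.5, 10631.5 and 4533.5 in Mito-Low, in the order resting, effector, Eno3-positive, cycling and other.

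Among the classes, Eno3-positive cells stood out in both libraries. There the 34 genes held 0.691% of UMIs in Mito-High (0.687% to 0.696%) against 0.433% in other cells, and 0.534% in Mito-Low (0.522% to 0.547%) against 0.356%. The log2 ratios of these sums were 0.68 (0.66 to 0.69) and 0.59 (0.55 to 0.62). Eno3-positive cells had the highest level of the 5 classes for 24 of the 34 genes in Mito-High and for 21 in Mito-Low. In Mito-High all 34 genes were higher in Eno3-positive than in other cells, against 47% of all genes, each with an interval above 0. There 21 were at least 1.5-fold higher, against 4.99%, and 0 at least 1.5-fold lower, against 2.4%. In Mito-Low 33 were higher, against 48.3%, 21 of them with an interval above 0, and 15 were at least 1.5-fold higher, against 3.55%, with 0 lower, against 2.06%. The exception was Rrp12, from 6 UMIs. The medians were 0.67 and 0.53, beside medians of -0.02 and -0.01 over all genes.

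Mettl1 had the largest ratio in each library. It was at 41.2 CPM in Eno3-positive and 16.3 CPM in other Mito-High cells (1.34, 1.18 to 1.49), and at 39.9 and 13.95 CPM in Mito-Low (1.54, 1.09 to 1.92). Its level in Eno3-positive cells was thus nearly the same in Mito-High and Mito-Low. The snoRNP gene Nhp2 was at 134 and 67.7 CPM (0.99) and at 106 and 47.1 CPM (1.19), and the nucleolar Pa2g4 at 112 and 56.4 CPM (0.99) and at 89.4 and 49.0 CPM (0.88). Mybbp1a (0.91 and 1.12), C1qbp (0.97 and 0.67), Mif (0.94 and 0.91) and Gar1 (0.89 and 0.80) were likewise high in both. In all, 13 genes were at least 1.5-fold higher in both libraries: these 7, Npm1, Fbl, Nop16, Nop58, Dkc1 and Utp20. How many of all genes passed in both libraries was not computed. All 8 snoRNP genes passed 1.5-fold in Mito-High and 5 did in Mito-Low.

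Myc was not among them. Its level in Eno3-positive cells was 56.1 CPM in Mito-High, against 46.0 in other cells (0.29, 0.17 to 0.40), and 25.9 CPM in Mito-Low, against 23.1 (0.20, -0.37 to 0.65). The Mito-Low value rests on 35 UMIs, and its interval spanned 0. Wdr43 (0.18 and 0.26) and Polr1c (0.28 and 0.15) were also small in both libraries. The gene with the largest ratio between the libraries thus had one of the smallest between these classes.

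**Figure D2:**
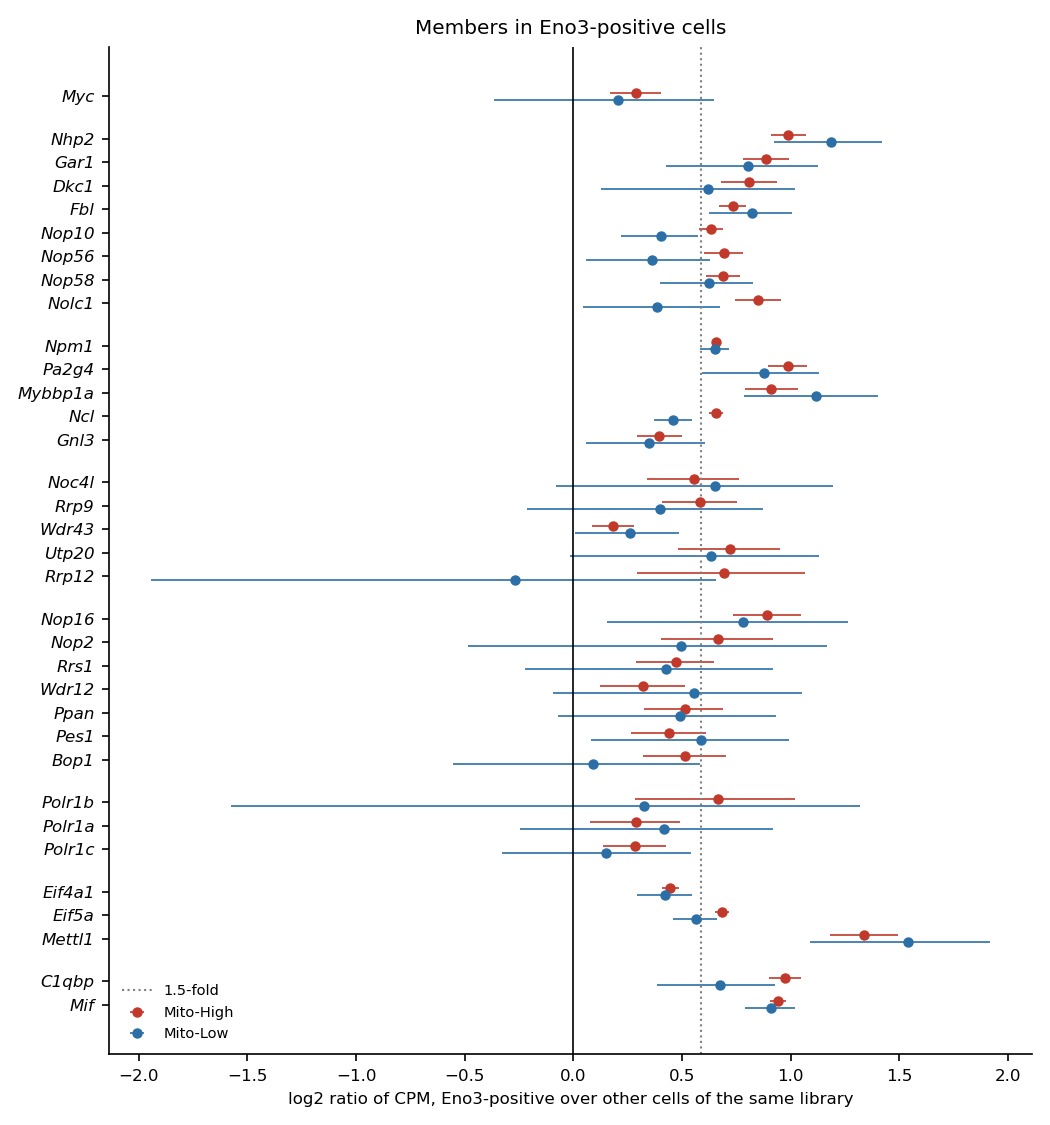
Log2 ratio of CPM, Eno3-positive over other cells of the same library, for each of the 34 genes in Mito-High (red) and Mito-Low (blue), grouped by role. Bars are 95% intervals for counting error only, wider in Mito-Low with its 192 Eno3-positive cells, and the dotted line marks 1.5-fold. Mettl1 lies farthest right in both (1.34 and 1.54), and Myc lies near 0 (0.29 and 0.20).

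Part of this went with depth. The members' share of UMIs was larger in deeper cells, apart from 1 fall in Mito-Low. There it went from 4332 CPM (4289 to 4375) at 8000 to 12000 UMIs to 4212 CPM (4149 to 4276) at 12000 to 20000 UMIs. Over all kept Mito-High cells the summed level was 3149 CPM in cells under 2000 UMIs, 3928 CPM at 4000 to 6000 UMIs, 4764 CPM at 8000 to 12000 and 8433 CPM above 20000. In Mito-Low it was 2808, 3334, 4332 and 7578 CPM. Mito-High was above Mito-Low in all 7 depth groups, with intervals apart in 6. Within depth groups Eno3-positive cells were above other cells in 6 of 6 groups in Mito-High and in 4 of 4 in Mito-Low that had at least 20 cells of each. With the depth groups weighted alike, the log2 ratio of the sums went from 0.68 to 0.37 in Mito-High and from 0.59 to 0.38 in Mito-Low, and 33 genes in each stayed above 0. The count at least 1.5-fold higher went from 21 to 1 and from 15 to 6. In this depth-weighted setting Mettl1 passed in both libraries, at 0.92 and 1.45, and Myc was at 0.08 and 0.20. With classes called on thinned cells the counts of 21 and 15 were 6 and 18. The 18 comes from 74 Mito-Low cells, in which the 1 count added to each sum weighs more than in other cells. The part of depth in the remaining differences was not tested, and doublets were not removed.

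Between the libraries, weighting depth groups alike lowered the log2 ratio of the sum from 0.43 to 0.22. Myc differed at each depth: at 4000 to 6000 UMIs it was at 41.7 and 21.9 CPM, and at 8000 to 12000 UMIs at 49.6 and 27.0 CPM. It was higher in Mito-High in 7 of 7 depth groups.

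**Figure D3:**
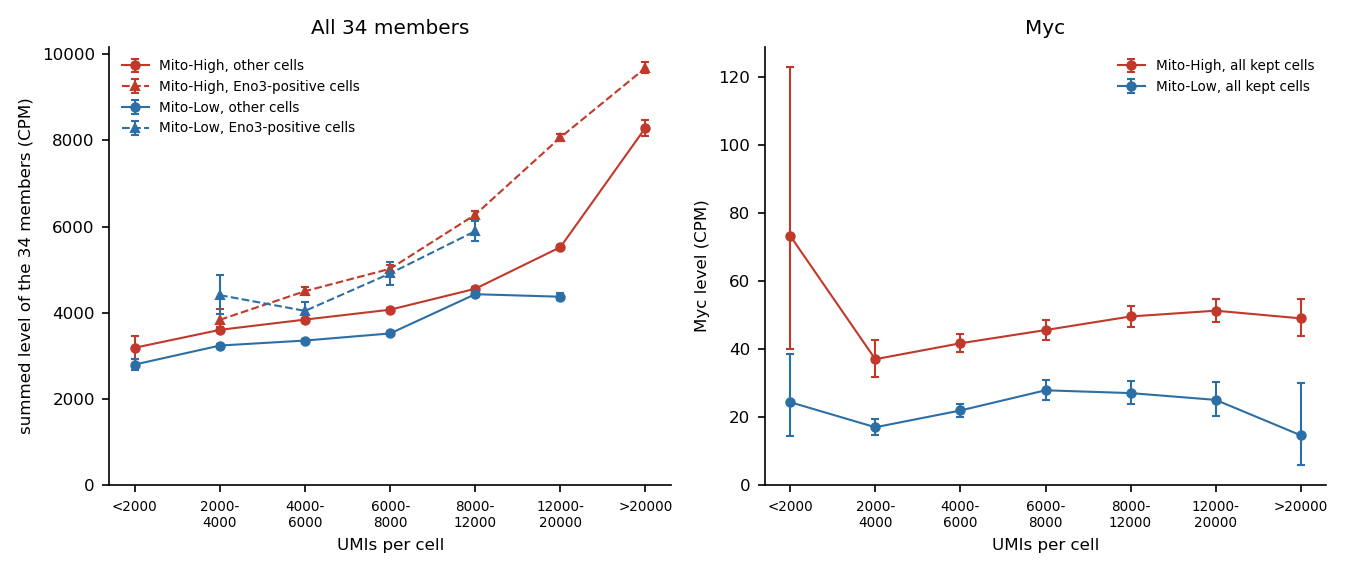
Left, summed level of the 34 genes in CPM by UMIs per cell, for other cells (circles, solid lines) and Eno3-positive cells (triangles, dashed lines) of Mito-High (red) and Mito-Low (blue). Right, Myc level in CPM over all kept cells. Bars are 95% Poisson or binomial intervals for counting error only; groups under 20 cells of a class are not drawn. The summed level is higher in the deepest than in the shallowest cells of each library, while Myc stays near 37 to 51 CPM in Mito-High above 2000 UMIs.

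In cycling cells the values differed by library; their summed share was second to that of Eno3-positive cells in Mito-High, while in Mito-Low resting cells were second. In Mito-High the members held 0.639% of UMIs in cycling cells against 0.433% in other cells (log2 0.56, 0.55 to 0.57), 30 of 34 genes were above 0, against 51.8% of all genes, and 13 were at least 1.5-fold higher and 0 lower, against 12.8%. That count has a high background, since 18.8% of all genes were at least 1.5-fold higher in these cells, whose median depth was 16569 UMIs. The RNA quality transcripts were at 4583 CPM in cycling and 12206 CPM in other Mito-High cells, and at 9617 and 22703 CPM in Mito-Low, against 9603 and 18435 CPM in Eno3-positive cells; their part in the result was not tested. Pa2g4 led, at 132 CPM against 56.4 (1.23, 1.13 to 1.33), before Nhp2 at 133 against 67.7 (0.97), Gar1 at 78.6 against 42.3 (0.90) and Dkc1 at 56.9 against 30.8 (0.89). Myc was lower in cycling cells, 35.3 against 46.0 CPM (-0.38, -0.55 to -0.22), the one gene of the 34 with an interval below 0. In Mito-Low, with 38 cycling cells and 413755 UMIs, the sum differed by 0.09 (0.01 to 0.16), the median was 0.08, 18 genes were above 0, against 53.6% of all genes, 6 were at least 1.5-fold higher, against 20.5%, and 1 (Gnl3) lower, against 15.1%. There 28 of 34 intervals spanned 0, and Polr1b had no UMI, which allows up to 7.25 CPM. Nhp2 (0.96, 0.42 to 1.39) and Pa2g4 (0.74, 0.16 to 1.20) were above 0 in these few cells too. Mif had an interval above 0 in both libraries (0.84 and 0.57). With classes called on thinned cells the count of 13 in Mito-High was 6, and the count of 6 in Mito-Low, then from 15 cells, was 26. In so small a class the 1 count added to each sum raises the ratios of genes with few UMIs, so the 26 carries no direction. The sum in that setting differed by 0.29, and the share of all genes that passed was not computed.

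Resting cells had somewhat more of these transcripts than other cells. The sum was 0.473% against 0.433% in Mito-High (0.13, 0.12 to 0.14) and 0.405% against 0.356% in Mito-Low (0.19, 0.15 to 0.23). In Mito-High 28 of 34 genes were above 0, against 35.1% of all genes, 0 were at least 1.5-fold higher, against 0.69%, and 0 lower, against 3.86%. In Mito-Low 29 were above 0, against 32.8%, 6 at least 1.5-fold higher, against 3.85%, and 0 lower, against 14.9%. With classes called on thinned cells the Mito-Low count of 6 was 14, then from 102 cells. There the 1 count added to each sum weighs more in resting than in other cells. Myc itself was at 49.0 CPM in resting and 46.0 CPM in other Mito-High cells (0.09, -0.02 to 0.20), and at 37.0 against 23.1 CPM in Mito-Low (0.71, 0.20 to 1.12, from 43 UMIs). Dkc1 had the largest value there, 46.4 against 22.1 CPM in Mito-Low (1.10, 0.65 to 1.47) and 35.4 against 30.8 CPM in Mito-High (0.20). The Mito-High difference of the sum is small: with classes called on thinned cells it was -0.011.

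With the classes as called, effector cells did not have a like direction in both libraries. In Mito-High the sum was 0.474% against 0.433% (0.13, 0.10 to 0.16), and in Mito-Low 0.349% against 0.356% (-0.03, -0.05 to -0.01). At least 1.5-fold higher were 2 genes in Mito-High, Pa2g4 and Rrp12, against 16.5% of all genes, and lower were Polr1a and Gnl3, against 6.96%. In Mito-Low 0 were higher, against 3.32%, and 0 lower, against 1.94%. Above 0 were 22 genes in Mito-High, against 61.1% of all genes, and 11 in Mito-Low, against 57.2%. The Mito-High class has 171 cells, 43 of them also in another class, and without those 43 the value was -0.27. Gnl3 was lower in effector cells of both, 34.9 against 56.4 CPM in Mito-High (-0.67, -1.07 to -0.34) and 59.0 against 68.4 CPM in Mito-Low (-0.21, -0.34 to -0.08). Nhp2 was higher in both (0.53 and 0.29). The 4 class comparisons of a library share its other cells.

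Cell by cell the genes were unevenly spread. After thinning to 2000 UMIs, a Mito-High cell had a mean of 8.71 member UMIs and a median of 7, and a Mito-Low cell a mean of 6.91 and a median of 6. The variance over cells was 4.15 and 3.52 times that of random sampling at a fixed share. Intervals of the summed level treat UMIs as independent, so they are narrower than this spread over cells would make them. In Eno3-positive cells the means were 11.9 and 10.1, the upper end of the central range drawn in the plot of cells was 23 and 19 member UMIs, and the variance was 6.15 and 7.30 times the sampling value. Their medians, 9 and 8, lay below their means. Cycling cells of Mito-High were close to this, with a mean of 11.4, a median of 9 and an upper end of 22. In Mito-Low cycling cells the mean was 7.95 and the upper end 12.6. Over all cells, the other 33 genes were higher in cells with a Myc UMI: 10.5 against 8.47 UMIs of 2000 in Mito-High, and 9.54 against 6.75 in Mito-Low. These cells also had more UMIs before thinning, with medians of 6570.5 against 6136.5 and 5289 against 4752. Inside effector and cycling cells of Mito-High and resting and Eno3-positive cells of Mito-Low, the intervals of the 33 genes overlapped. In Eno3-positive Mito-Low cells the means were 10.2 (8.24 to 12.5, 9 cells) and 10.0 (9.56 to 10.5).

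**Figure D4:**
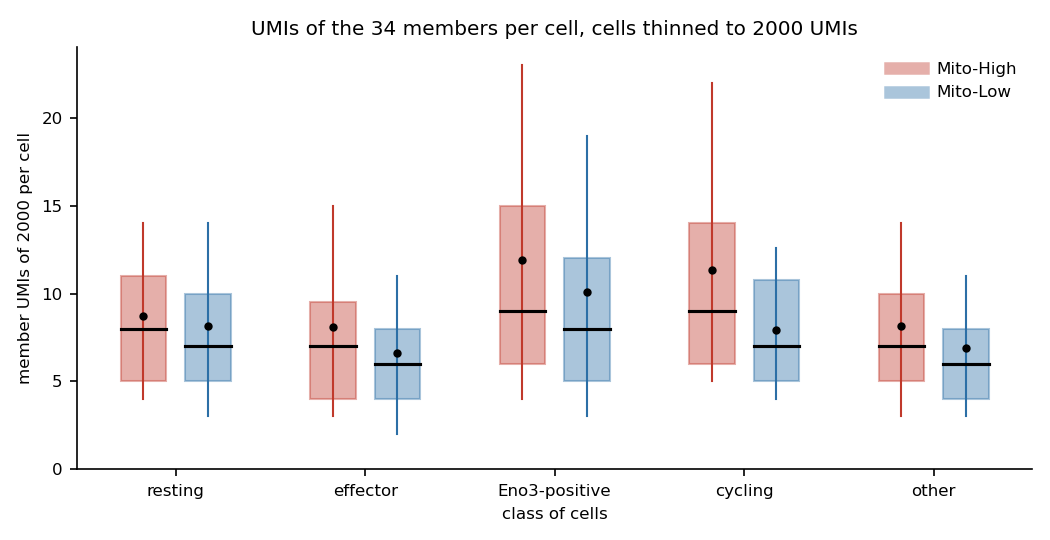
UMIs of the 34 genes per cell after each cell was thinned to 2000 UMIs, by class, in Mito-High (red) and Mito-Low (blue). Boxes span the quartiles, thin lines the 10th to 90th percentiles, bars are medians and dots are means over cells. Eno3-positive cells have the highest means (11.9 and 10.1) and the longest upper ranges (to 23 and 19). Cycling cells of Mito-High are close (mean 11.4, upper range to 22).

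Inside the classes the libraries still differed. Mito-High over Mito-Low, the log2 ratio of the sum was 0.28 (0.27 to 0.29) in other cells, 0.22 (0.18 to 0.27) in resting, 0.44 (0.41 to 0.48) in effector, 0.37 (0.34 to 0.41) in Eno3-positive and 0.75 (0.68 to 0.83) in cycling cells. The values in resting and effector cells were not stable: with stricter class rules they were 0.055 and -0.026. In other cells, the largest class, the median of the 34 genes was 0.17 against -0.14 over all genes and 21 were above 0, against 30.1%. There 1 gene (Myc) was at least 1.5-fold higher, against 2.12% of all genes, and 1 (Rrp12) at least 1.5-fold lower, against 8.2%. So outside the 4 marked classes 7 of the 8 genes named first no longer passed 1.5-fold; Npm1 was at 0.55, C1qbp at 0.55 and Nhp2 at 0.52. With classes called on thinned cells, 5 genes passed in other cells. With all classes weighted alike, the sum differed by 0.27.

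In resting cells the median was -0.11, beside -0.04 over all genes, and 16 genes were above 0, against 44.5%. There Gar1 was the 1 gene at least 1.5-fold higher (52.3 against 28.4 CPM, 0.84), against 3.75% of all genes, and Wdr12 (12.9 against 25.8 CPM, -1.04, -1.55 to -0.41) and Ppan (18.8 against 29.2 CPM, -0.68, -1.15 to -0.09) were at least 1.5-fold lower, against 6.25%. In effector cells the median was 0.40, 25 genes were above 0, against 43.5%, and 13 genes were at least 1.5-fold higher, against 10.3%, led by Dkc1 at 43.5 against 21.5 CPM (1.03, 0.63 to 1.40). With cells of exactly 1 class that count was 1, with a median of 0.078 and 18 genes above 0, and with stricter class rules it was 5, with a median of 0.019. In the same cells 3 were at least 1.5-fold lower (Gnl3, Wdr43 and Polr1a), against 12.4%. In Eno3-positive cells the median was 0.25, 26 genes were above 0, against 37.5%, and 4 were at least 1.5-fold higher (Myc, C1qbp, Dkc1 and Nop16), against 5.5%, with 0 lower, against 14.3%. That count of 4 was 2 with cells of exactly 1 class, 7 with classes called on thinned cells and 11 with stricter rules, which left 20 Mito-Low cells. In cycling cells the median was 0.60 (0.56 without Polr1b, which had no UMI in Mito-Low), 30 genes were above 0, against 39.8%, 17 were at least 1.5-fold higher, against 11.8%, and 1 lower (Utp20), against 21.5%. C1qbp was at 143 against 45.9 CPM in cycling cells (1.57, 0.99 to 2.38), the latter from 19 UMIs. With cells of exactly 1 class the count of 17 was 9. With classes called on thinned cells, which left 15 in Mito-Low, 5 genes passed, 5 were above 0 and the median was -0.74. There the 1 count added to each sum weighs far more in Mito-Low and lowers the ratios of genes with few UMIs. These values thus carry no direction, and the sum in that setting differed by 0.30.

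Across the 5 classes 13 genes were higher in Mito-High in each, and for 10 of these every interval lay above 0: Npm1, Fbl, Nop10, Nhp2, Gar1, C1qbp, Mif, Eif4a1, Eif5a and Pa2g4. The share of all genes that were higher in each class was not computed, so these counts have no background beside them. Myc was higher in each class too, with the interval above 0 in effector (39.7 against 21.9 CPM, 0.87), Eno3-positive (56.1 against 25.9 CPM, 1.08) and other cells (46.0 against 23.1 CPM, 0.99), and spanning 0 in resting (0.37) and cycling cells (0.55). Pes1, Polr1a and Utp20 had values below 0 in each class, but most of their intervals spanned 0: those of Pes1 did in all 5 classes, that of Polr1a lay below 0 in effector cells alone, and those of Utp20 in cycling and other cells. Mettl1 was level between the libraries inside Eno3-positive cells (0.02, -0.36 to 0.48), although it differed by 0.52 over all cells.

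**Figure D5:**
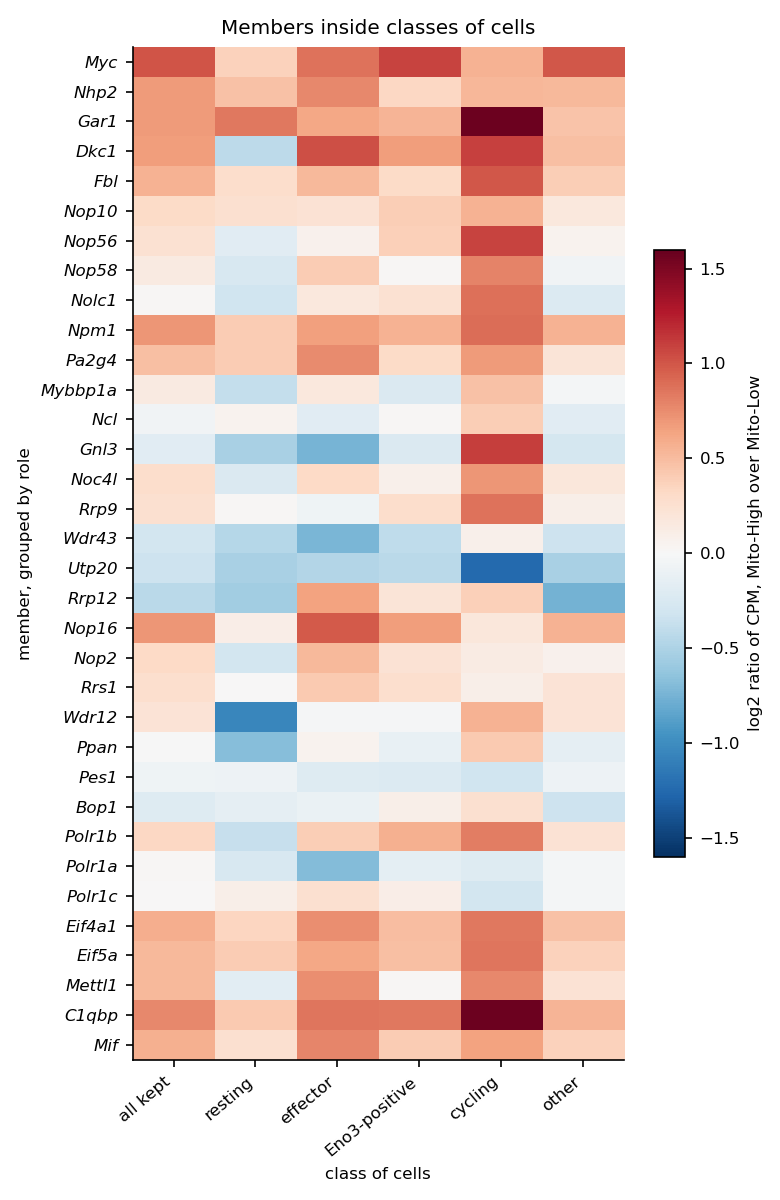
Log2 ratio of CPM, Mito-High over Mito-Low, for each of the 34 genes (rows, grouped by role) over all kept cells and inside each class (columns). Red is higher in Mito-High and blue lower. Npm1, C1qbp and Eif4a1 are red in every column, Utp20 is blue in every column, and the cycling column, with 38 Mito-Low cells, has the most extreme values.

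The other genes of the same routes, from lists of pathway genes that leave the 34 out, had lower medians. Of 33 further small-subunit processing genes at 20 CPM or more, 0 passed 1.5-fold upward and 1 downward (Pdcd11, 22.8 against 44.6 CPM, -0.96), with a median of -0.01. Of 39 large-subunit assembly genes 2 were higher (Senp3, 0.78, and Mrto4, 0.60) and 2 lower (Nol10, -1.08, and Ddx24, -0.73), with a median of -0.05. Of 13 genes of RNA polymerase I and snoRNP assembly 0 passed in either direction, with a median of -0.01; the helicase Ddx21 was at 110 against 150 CPM (-0.45). The upward counts of the 3 lists were near the 3.65% of all genes, and the downward counts were below the 10.7% of all genes. The 3 medians were above the -0.15 of all genes and turned positive under the 3 other scalings, so their sign carries no direction. The median of the 34 genes stood at 0.27, and that of the 24 members at 20 CPM or more, the minimum used for these lists, at 0.50. The difference between the lists was not tested.

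A further pair of lists concerns MYC. Of 28 textbook MYC-induced genes outside ribosome assembly that reached 20 CPM, 8 passed 1.5-fold upward, against 3.65% of all genes. Downward passed 2, against 10.7%, and the median was 0.48. Spermidine synthase (Srm) was at 20.5 against 10.4 CPM (0.98), the nuclear transport GTPase Ran at 388 against 212 CPM (0.87) and the amino acid transporter subunit Slc7a5 at 29.7 against 16.8 CPM (0.82). Odc1, the enzyme before Srm in polyamine synthesis and a classic MYC target, went the other way, at 317 against 717 CPM (-1.18, -1.20 to -1.16). Of 13 genes of the MYC network 0 were higher and 2 lower, with a median of -0.13 that was 0.05 under TMM scaling. The lower ones were Mxi1, a MAX partner that antagonizes MYC, at 60.2 against 146 CPM (-1.28), and the kinase Pim1 at 706 against 1084 CPM (-0.62).

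Among the comparison lists, cytosolic ribosomal protein genes had a median of 0.39 with 9 of 75 at least 1.5-fold higher, mitochondrial ribosomal protein genes a median of 0.22 with 2 of 65, translation factors 0.12 with 2 of 36, nuclear exosome genes 0.13 with 0 of 10, and snoRNA host genes 0.12 with 2 of 11 (Snhg6, 56.5 against 14.4 CPM, 1.98, and Snhg1, 0.76). Over all genes 3.65% were at least 1.5-fold higher, so the counts of the mitochondrial ribosomal and translation lists were near that share. None of these lists had a gene at least 1.5-fold lower, against 10.7%. In Eno3-positive over other cells the order was another one. The MYC-induced list had medians of 0.72 (Mito-High) and 0.53 (Mito-Low), with 19 of 31 and 9 of 29 genes at least 1.5-fold higher, against 4.99% and 3.55% of all genes. The medians of the 34 genes were 0.67 and 0.53. Srm was at 1.18 and 1.52 and Ran at 1.01 and 0.67. Small-subunit processing genes had 0.23 and 0.12, large-subunit assembly genes 0.29 and 0.24, mitochondrial ribosomal protein genes 0.29 and 0.26, cytosolic ribosomal protein genes 0.07 and 0.13, and the MYC network -0.11 and -0.17.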

How the data were processed

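Each library was made with a Chromium Single Cell 5′ kit and holds MitoTracker-stained Treg cells sorted as bright or dim. The deposited files hold whole-number counts of UMIs per gene and barcode, made with Cell Ranger 7.1.0 per the file headers, and the submitters' processing notes name mm10. Whether counting used strand is not given in the sources used here. Barcodes with at least 500 genes and at most 20% mitochondrial UMIs were kept; no doublet caller was run, and leaving out cells above 20000 UMIs was tried instead. Counts were summed per library and class and divided by their total (CPM). Log2 ratios of genes have 1 count added to each sum. Intervals are 95% exact Poisson, conditional binomial or Clopper-Pearson intervals, for counting error only, and with 1 library per group no test was made; 1.5-fold describes size only. Genes outside the 34 were named by rule: up to 4 per pathway list with the largest absolute log2 ratio among those reaching 20 CPM. The script was tested on simulated data. The 34 genes, the classes and the lists were chosen with earlier results of these data known. Python 3.11.15, numpy 2.4.6, scipy 1.17.1, pandas 2.3.3 and, for TMM, edgeR 4.0.16 in R 4.3.3 were used. Alternatives covered scaling, depth, cell weights, class rules, doublets and thresholds.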

Additional observations from a re-analysis of the deposited data

Results flagged for a closer look

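The following 4 genes differed in direction between the libraries within the same class comparison, with both counting intervals away from 0. They were picked from the 34 genes in 4 class comparisons, and the share of all genes that meet this rule was not computed. The difference between libraries was not tested. Ncl was 0.085 on the log2 scale in resting over other cells of Mito-High and -0.15 in Mito-Low. Wdr12 was -0.39 and 0.87 in the same comparison. In effector over other cells, with Mito-High first, Nop58 was 0.25 and -0.20 and Mif 0.32 and -0.10. Without the 43 Mito-High effector cells that are also in another class, the log2 ratio of the sum there was -0.27, the median -0.19, and 8 of 34 genes were above 0; the single genes were not recomputed in that setting.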

How the results depend on the processing

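No paired analysis was possible because each group has 1 library and no replicate numbers. Counting intervals do not cover differences between cells, sorts, animals or library preparations, and the cause of each change below was not tested. Over all cells the log2 ratio of the sum (0.43) was 0.62 with TMM, 0.58 with the median set to 0 and 0.55 with totals without mitochondrial, ribosomal, T cell receptor and immunoglobulin genes. It was 0.35 with equal weight per cell, 0.33 with thinned cells, 0.24 at 4000 to 6000 UMIs, 0.28 without cycling and Eno3-positive cells, 0.28 in cells of no class, 0.36 without cells above 20000 UMIs, 0.27 with classes weighted alike, 0.22 with depth groups weighted alike (chosen after seeing the data) and 0.29 without the 5 members with the most UMIs. The median of the 34 was 0.46, 0.42 and 0.40 under the 3 scalings, 0.14 at 4000 to 6000 UMIs, 0.11 with classes and 0.14 with depth groups weighted alike. The count of members past 1.5-fold upward (8) was 13 under each scaling, 4 with equal weights, thinning or no cells above 20000 UMIs, 1 at 4000 to 6000 UMIs, without cycling and Eno3-positive cells, in cells of no class and with classes or depth groups weighted alike, 5 at 50 CPM or more, 14 at a lower fold threshold and 1 at 2-fold. Downward (0) it was 1 with equal weights, without cycling and Eno3-positive cells, in cells of no class and with depth groups alike, and 2 at 4000 to 6000 UMIs, with classes alike and at the lower fold threshold. The members' share of UMIs was 0.366% and 0.297% as the median over cells and 0.137% and 0.111% without the 5 members. Taking cells of exactly 1 class, classes called on thinned cells and stricter class rules in that order, Mito-High over Mito-Low was 0.11, 0.018 and 0.055 in resting, 0.055, -0.29 and -0.026 in effector, 0.30, 0.26 and 0.50 in Eno3-positive and 0.52, 0.30 and 0.84 in cycling cells. On thinned cells it was 0.31 in other cells, and the medians turned to -0.068 in Eno3-positive and -0.74 in cycling cells, the latter with 15 Mito-Low cells. The 1 count added to each sum weighs more in these smaller Mito-Low classes and lowers both medians, so their sign carries no direction. How far it moved them was not measured. Within Mito-High, cells of exactly 1 class and thinned classes gave 0.015 and -0.011 for resting over other cells, -0.27 and -0.72 for effector (medians -0.19 and -0.29), 0.63 and 0.47 for Eno3-positive and 0.38 and 0.29 for cycling. Within Mito-Low thinned classes gave 0.28, -0.12, 0.52 and 0.29. With depth groups alike, a setting also chosen after seeing the data, Eno3-positive over other was 0.37 in Mito-High and 0.38 in Mito-Low.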
